A study of Mus musculus with 8 samples.

Results

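The genes described are those of the MHC class I molecule and its peptide loading machinery: the heavy chains H2-K1, H2-D1, H2-Q4, H2-Q7, H2-Q10 and H2-T23, the light chain B2m, the peptide transporter subunits Tap1 and Tap2, and Tapbp, which encodes tapasin. They are 10 of the 31053 genes in the deposited count table. They were picked on the comparison of genotypes reported here, because H2-Q10 was among the genes with the largest decreases, so their values in that comparison are a description and carry no test. Of the 10 genes, 9 passed the filter on low counts, as did 8930 genes in all.

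Brown adipose tissue (BAT) of 4 WT and 4 Ucp1Δ/Δ mice was profiled by bulk RNA-seq. The Ucp1Δ/Δ mice, labelled ATGLKO, came from crossing Pnpla2 fl/fl mice with mice carrying a Cre transgene driven by the Ucp1 promoter, which is active in thermogenic adipocytes, so that Pnpla2, the gene for the lipase ATGL, was deleted in those cells and not in the other cells of the tissue. All mice were males on a C57BL6/J background, and the labels give an age of 10 weeks for both groups, while the study's text gives a younger age. Whether the WT mice carried the floxed alleles or the Cre transgene is not given in the sources used here. The labels name the stromal vascular fraction, the cells left once adipocytes are removed, but Cidea, Fabp4 and the other adipocyte markers listed took between 27567 and 63281 counts in every mouse, so the libraries held adipocyte RNA in both groups.

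MHC class I molecules are found on nearly all nucleated cells and show peptides from the cell's own proteins to CD8 T cells and NK cells. A polymorphic heavy chain, the light chain β2-microglobulin and a peptide make up the complex. The proteasome makes the peptides, the TAP transporter moves them into the endoplasmic reticulum, and tapasin holds the empty heavy chain at the transporter until a peptide is bound. H2-K1 and H2-D1 are the classical mouse heavy chains, H2-Q4, H2-Q7, H2-Q10 and H2-T23 are non-classical ones, and H2-Q10 encodes a secreted molecule known from liver and serum. Interferons induce most of these genes. The promoters of the classical heavy chains and of B2m hold an upstream block of NF-kB, interferon response, cAMP response-like and CCAAT elements.

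The stretches of promoter at the place of this block are shown, with different letters in that of H2-Q10. They are RefSeq sequences of GRCm38.p6, read 5′ to 3′ on the strand of the gene, and the capitals mark matches on either strand to the NF-kB consensus, to the interferon regulatory factor core AANNGAAA, to the cAMP response half-site TGACG and to CCAAT. A match in reverse orientation appears as its complement, such as ATTGG for CCAAT. Matches to the NF-kB consensus on opposite strands overlap. For H2-K1 the stretch runs slightly past the annotated start.
H2-K1, chr17:34000329-34000469, minus strand: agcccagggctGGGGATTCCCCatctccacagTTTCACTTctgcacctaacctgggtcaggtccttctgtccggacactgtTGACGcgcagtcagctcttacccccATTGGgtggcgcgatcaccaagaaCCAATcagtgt
H2-D1, chr17:35262912-35263051, plus strand: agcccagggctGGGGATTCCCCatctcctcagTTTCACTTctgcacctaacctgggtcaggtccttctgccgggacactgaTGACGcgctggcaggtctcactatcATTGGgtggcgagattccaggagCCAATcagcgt
H2-Q4, chr17:35379432-35379572, plus strand: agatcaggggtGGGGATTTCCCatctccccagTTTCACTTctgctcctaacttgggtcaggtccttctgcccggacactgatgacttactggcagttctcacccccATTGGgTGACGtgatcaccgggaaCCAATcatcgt
H2-Q7, chr17:35439010-35439149, plus strand: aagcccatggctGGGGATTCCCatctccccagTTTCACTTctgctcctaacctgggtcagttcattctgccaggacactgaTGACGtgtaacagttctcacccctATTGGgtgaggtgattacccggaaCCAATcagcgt
H2-Q10, chr17:35469902-35470044, plus strand: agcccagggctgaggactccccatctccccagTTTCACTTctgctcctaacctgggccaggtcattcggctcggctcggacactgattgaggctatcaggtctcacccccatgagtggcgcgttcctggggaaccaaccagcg
B2m, chr2:122147537-122147641, plus strand: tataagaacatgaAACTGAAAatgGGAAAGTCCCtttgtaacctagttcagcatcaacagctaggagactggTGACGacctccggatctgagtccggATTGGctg

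All 4 kinds of match were found in the 300-base promoter windows of H2-K1, H2-D1, H2-Q4, H2-Q7 and B2m, and in 36 of all 32851 promoter windows, or 0.11%. Singly, the NF-kB consensus was present in 8.46%, the interferon regulatory factor core in 23.9%, TGACG in 20.8% and CCAAT in 37.4% of the windows. H2-Q10 held the interferon regulatory factor core and no match to the other 3 kinds, as its sequence shows at the places where the other heavy chains carry capitals. A promoter without a match to these 3 is common, at 45.2% of all windows. The stretches printed for the heavy chains were aligned in pairs over their whole length. Between H2-Q10 and the others, 76.9% to 79.7% of the aligned columns, gaps included, held identical bases. Among the others the share was 83.1% to 87.9%. In H2-Q4 the TGACG match lay behind ATTGG and not at the place where H2-K1, H2-D1 and H2-Q7 have it. H2-T23 and Tap1 held 2 kinds of match and Tapbp 1. The Tapbp window (chr17:33919228-33919527) is that of a RefSeq start inside the GENCODE span of the gene (chr17:33915899-33929292, plus strand). The bases before the GENCODE start of Tapbp were not searched. The matches are a description of letters, and binding was not measured. A link between the letters and the differences in expression was not tested.

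Total counts ranged from 2017697 to 3115956 per mouse and did not separate the genotypes (two-sided exact permutation test of the difference in means, p = 0.629, where 0.0286 is the smallest p that 4 mice against 4 allow). Values are given as counts and as CPM, which are the counts scaled to a common library size after TMM normalization, and log2FC is Ucp1Δ/Δ against WT with its standard error (SE). At these depths 3 counts correspond to between 0.933 and 1.53 CPM, a limit that covers counting error only. As a check of the labels, Pnpla2 was at 2837, 2702, 2961 and 3152 CPM in WT and at 513.7, 448, 403 and 531 CPM in Ucp1Δ/Δ mice, a log2FC of -2.62 (SE 0.17, adjusted p = 1.97e-07 by the quasi-likelihood test of edgeR, adjusted after Benjamini and Hochberg).

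**Figure D1:**
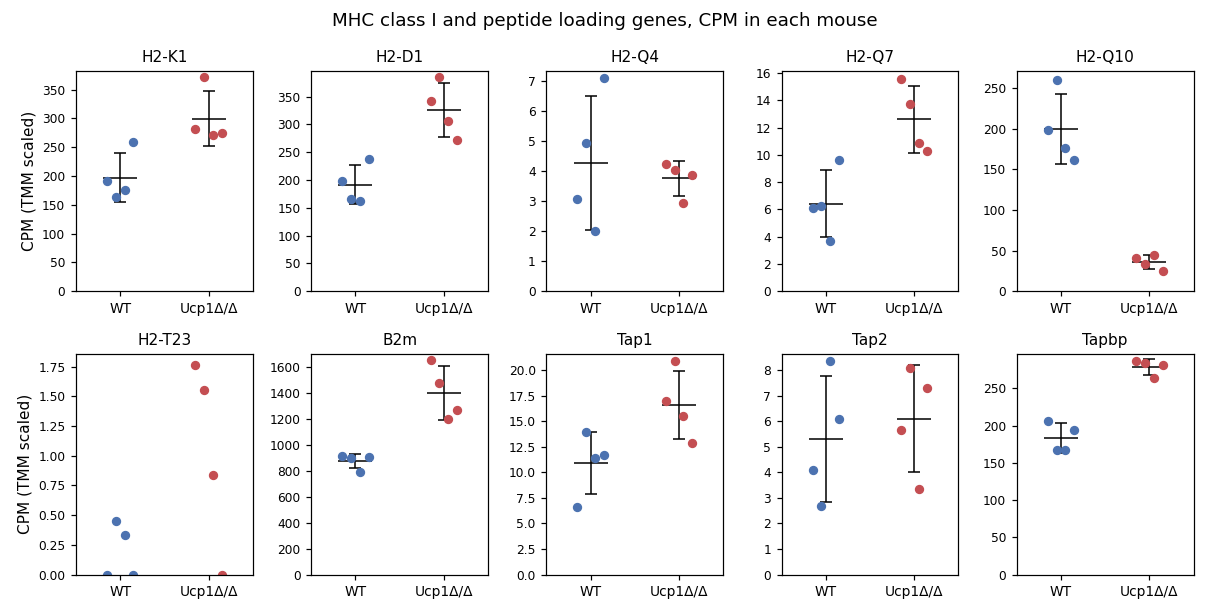
CPM (TMM scaled, linear axes from 0) of the 10 genes in each of 4 WT and 4 Ucp1Δ/Δ mice; each point is a mouse, the horizontal line is the mean and the bars are 1 SD (not drawn for H2-T23, which had at most 5 counts in a mouse). H2-Q10 lies below the WT range in every Ucp1Δ/Δ mouse, whereas H2-K1, H2-D1, H2-Q7, B2m and Tapbp lie above it.

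In the BAT of Ucp1Δ/Δ mice the mRNA of H2-Q10 was at 18.1% of its WT mean, whereas the classical heavy chains, H2-Q7, B2m and Tapbp were between 1.52 and 1.96 times as high as in WT. Among the 9 genes tested, 5 were called higher and 1 lower (adjusted p under 0.05), beside 13.3% called higher and 7.63% called lower among all 8930 genes; since the genes were chosen by this contrast, nothing is read from the difference. Without WT replicates 1 or 3 or Ucp1Δ/Δ replicates 1 or 2, 3 genes were called higher, since H2-K1 and H2-Q7 were lost. H2-K1 alone was also lost without WT replicate 2 or Ucp1Δ/Δ replicate 4. The CPM of the groups did not overlap for the same 6 genes, beside 14.4% of all genes with every Ucp1Δ/Δ mouse above the WT range and 9.37% with every one below it. Their median log2FC was 0.61, that of all genes tested -0.01. Bulk RNA cannot tell a smaller number of cells of a type from less RNA per cell, and this holds for each difference given.

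H2-Q10 (ENSMUSG00000067235, chr17:35470089-35474563 of GRCm38, plus strand, protein coding) had 390, 579, 529 and 319 counts in WT replicates 1 to 4 and 114, 108, 108 and 58 counts in Ucp1Δ/Δ replicates 1 to 4. In CPM these are 199, 259, 177 and 162 in WT and 40.3, 33.6, 45.1 and 24.9 in Ucp1Δ/Δ mice. The lowest WT mouse was thus well above the highest Ucp1Δ/Δ mouse. The means were 199 ± 43.0 CPM and 36.0 ± 8.78 CPM (SD, n = 4 each), a log2FC of -2.47 (SE 0.22). It was the 9th lowest log2FC of all 8930 genes, and the 4th lowest among the 6428 genes with a mean of at least 10 CPM. Leaving out any mouse kept it between -2.57 and -2.32.

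The classical heavy chain H2-K1 (chr17:33996017-34000347, minus strand) was at 191, 163, 176 and 259 CPM in WT mice and at 282, 372, 270 and 275 CPM in Ucp1Δ/Δ mice. The groups did not overlap, but WT replicate 4 came close to the lowest Ucp1Δ/Δ mouse. The log2FC was 0.61 (SE 0.19). H2-D1 (chr17:35262730-35267499, plus strand), the other classical heavy chain, was at 197, 167, 163 and 239 CPM in WT and at 342, 385, 306 and 272 CPM in Ucp1Δ/Δ mice, also without overlap and also with the highest WT value in replicate 4. Its log2FC was 0.77 (SE 0.18). The ratio of H2-K1 to H2-D1 counts was 1.03 ± 0.06 in WT and 0.92 ± 0.08 in Ucp1Δ/Δ mice (SD, n = 4 each), with overlapping ranges.

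The other heavy chains had few counts. H2-Q7 (chr17:35439155-35443773, plus strand), which encodes the non-classical molecule Qa-2, had 12, 14, 11 and 19 counts in WT and 44, 44, 26 and 24 counts in Ucp1Δ/Δ mice. In CPM the means were 6.42 ± 2.45 and 12.6 ± 2.47 (SD, n = 4 each), with a narrow gap between the groups and a log2FC of 1.01 (SE 0.30). H2-Q4 (chr17:35379617-35385290, plus strand) had between 6 and 14 counts in WT and between 7 and 13 in Ucp1Δ/Δ mice, and its log2FC of -0.12 (SE 0.40) was smaller than its error. H2-T23 (chr17:36029773-36032855, minus strand), which encodes Qa-1, the ligand of the NKG2 receptors, had 0, 1, 1 and 0 counts in WT and 5, 5, 2 and 0 in Ucp1Δ/Δ mice, and did not pass the filter. At this depth no difference in H2-Q4 or H2-T23 could be shown.

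The light chain B2m (chr2:122147686-122153083, plus strand), which every class I heavy chain of this family needs to fold, was at 909, 894, 789 and 902 CPM in WT mice and at 1655, 1472, 1195 and 1265 CPM in Ucp1Δ/Δ mice. The WT mice lay close together and all Ucp1Δ/Δ mice lay above them. The log2FC was 0.68 (SE 0.16). For each count on any heavy chain gene there were 1.44 ± 0.09 B2m counts in WT and 2.0 ± 0.25 in Ucp1Δ/Δ mice (SD, n = 4 each), without overlap. The heavy chain total holds H2-Q10, so the decrease of H2-Q10 by itself raises this ratio. Without H2-Q10 the heavy chain sum averaged 409 CPM in WT and 667 CPM in Ucp1Δ/Δ mice, while B2m averaged 874 and 1397 CPM.

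Of the loading genes, Tapbp (chr17:33915899-33929292, plus strand) was at 206, 167, 167 and 194 CPM in WT and at 287, 284, 263 and 282 CPM in Ucp1Δ/Δ mice. The Ucp1Δ/Δ values had the smallest coefficient of variation of the genes described (3.85%), with a mean of 279 ± 10.7 CPM (SD, n = 4), and all lay above the WT range, with a log2FC of 0.61 (SE 0.15). The transporter subunit Tap1 (chr17:34187553-34197225, plus strand) had 13, 31, 34 and 23 counts in WT and 48, 67, 37 and 30 in Ucp1Δ/Δ mice. Its log2FC of 0.60 (SE 0.25) was of the size seen for Tapbp and H2-K1, but its CPM ranges overlapped and it was not called. Tap2 (chr17:34203527-34216321, plus strand), the partner subunit, had between 6 and 25 counts in WT and between 8 and 26 in Ucp1Δ/Δ mice, with a log2FC of 0.18 (SE 0.38) and fully overlapping ranges.

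**Figure D2:**
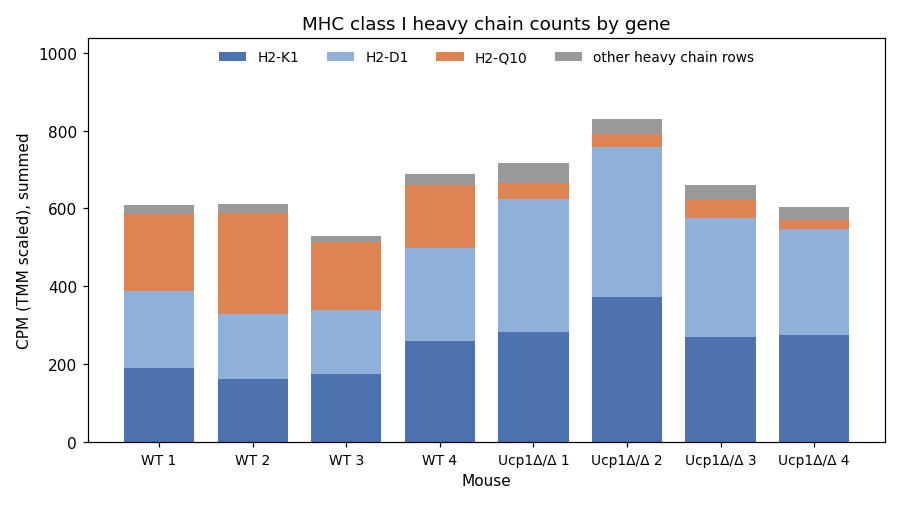
Summed CPM (TMM scaled) of the class I heavy chain genes in each mouse, stacked as H2-K1, H2-D1, H2-Q10 and all other heavy chain genes. The H2-Q10 segment is 162 to 259 CPM in WT and 24.9 to 45.1 CPM in Ucp1Δ/Δ mice, and the whole bars overlap between genotypes.

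The sum over the heavy chains overlapped between genotypes. Summed over the 24 class I heavy chain genes in the table, 13 of them with counts, expression was 609 ± 64.8 CPM in WT and 703 ± 96.6 CPM in Ucp1Δ/Δ mice (SD, n = 4 each), ranging from 529 to 687 and from 604 to 830. Without H2-Q10 the sums were 409 ± 82.1 CPM, between 351 and 526, and 667 ± 95.4 CPM, between 579 and 797, without overlap. H2-Q10 took 32.7%, 42.5%, 33.4% and 23.5% of the heavy chain counts in WT mice and 5.64%, 4.05%, 6.84% and 4.12% in Ucp1Δ/Δ mice. The share of H2-K1 averaged 32.2% and 42.6%, and that of H2-D1 31.3% and 46.4%, both without overlap. These are shares of counts that are not corrected for transcript length. The heavy chain total holds H2-Q10, so the decrease of H2-Q10 by itself raises the shares of the other heavy chains. Whether those shares rose beyond this was not tested.

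Heavy chain genes resemble one another, so reads can fall on the wrong gene or be dropped when they match several. Of all 75-base windows, the read length, in the GENCODE transcripts of H2-Q10, 4.41% occur unchanged in another gene, most often H2-Q1, which had 0 counts in every mouse. The share was 1.12% for H2-K1, 6.33% for H2-D1, 21.7% for H2-Q4, 22.6% for H2-Q7 (most often H2-Q6, with at most 4 counts in a mouse), 13.1% for H2-T23 and 0% for B2m. For Tapbp it was 17.2%. Windows were compared on both strands, so overlap with antisense genes counts as sharing. The largest partner of Tapbp was antisense Gm19412, with 387 of its 531 shared windows. That of H2-Q4 was antisense Gm11131, with 230 of 373. Reads from such overlaps are ambiguous only if counting ignored strand. By this measure, which mixes similar genes with overlap, the values of H2-Q4, H2-Q7, Tapbp and H2-T23 are the most uncertain. The windows cover whole transcripts alike, and where along the transcripts the reads fell was not examined. Of the exon bases of Tapbp, 24.9% overlapped the antisense gene Gm19412, and 4.11% overlapped Zbtb22 on the same strand, which counting by strand would not separate. On the opposite strand, 19.1% of H2-Q4 overlapped Gm11131, 3.87% of Tap1 overlapped Psmb9 and 14.1% of Tap2 overlapped Gm15821. Whether the counting used strand is not given in the sources used here. With all H2-Q genes summed to 1 feature the log2FC was -1.99 (SE 0.20), and with all heavy chain genes summed 0.21 (SE 0.16).

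**Figure D3:**
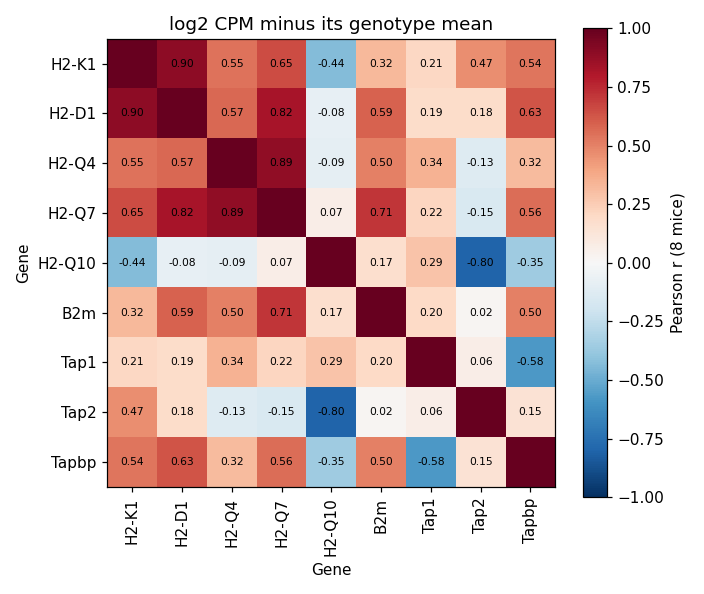
Pearson r between pairs of the 9 genes tested over 8 mice, computed on log2 CPM after the mean of each genotype was subtracted, so that the difference between genotypes plays no part. H2-K1 and H2-D1 show 0.90 and H2-Q10 between -0.80 and 0.29 with the other genes.

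Among mice of the same genotype, the classical heavy chains varied together. On log2 CPM with the genotype mean removed, H2-K1 and H2-D1 had an r of 0.898 over 8 mice, and the 6 pairs of H2-K1, H2-D1, B2m and Tapbp had r between 0.323 and 0.898. For H2-Q10 the 8 pairs had r between -0.803 (Tap2) and 0.288 (Tap1), with a median of -0.0837. The 28 pairs without H2-Q10 had r between -0.578 and 0.898, with a median of 0.405. Negative r was not particular to H2-Q10: Tap1 had -0.578 with Tapbp, and Tap2 had -0.15 with H2-Q7. The genes most like H2-Q10 by this measure were Cebpb (0.991), a transcription factor of adipocyte differentiation, Smpdl3a (0.981) and Ehd1 (0.979). Those most like H2-K1 were Calr (0.985), the calreticulin of the peptide loading complex, Clmn (0.968) and Cyth4 (0.952), and among those most like B2m were Ampd3 (0.974) and Cfd (0.939). These are the highest of 6427 genes over 8 mice that share their libraries and depth, and are a description.

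Of 28 other class I and class I-like genes listed, H2-Q8, H2-Q9, H2-T10 and Cd1d2 were not analysed here, 8 had 0 counts in every mouse and 5 passed the filter. Of these, 2 rose and 1 fell, beside 13.3% and 7.63% of all genes. Cd1d1 (chr3:86995834-86999441, minus strand), which presents lipids to NKT cells, fell from 65.8, 111, 79.8 and 86.6 CPM in WT to 31.5, 35.2, 37.2 and 35.6 CPM in Ucp1Δ/Δ mice, a log2FC of -1.30 (SE 0.18, edgeR adjusted p = 0.00011). Together with H2-Q10 it lay below the WT range in every Ucp1Δ/Δ mouse. H2-T22 (chr17:36037128-36042747, minus strand), a ligand of some γδ T cells, rose from between 15 and 21 counts to between 37 and 65 counts, a log2FC of 1.10 (SE 0.27, edgeR adjusted p = 0.00803). Hfe, the class I-like protein of iron balance, rose with a log2FC of 0.77 (SE 0.24, edgeR adjusted p = 0.0324), a call lost without Ucp1Δ/Δ replicate 1 (adjusted p = 0.118), without WT replicate 1 (0.0952), without Ucp1Δ/Δ replicate 2 (0.0651) or with DESeq2 (0.0695). Mr1 and Fcgrt, the neonatal Fc receptor, had log2FC of 0.12 (SE 0.35) and 0.06 (SE 0.17). Windows shared with other genes made up 24.6% for H2-T22 and 18.7% for Cd1d1, the latter all with Cd1d2.

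**Figure D4:**
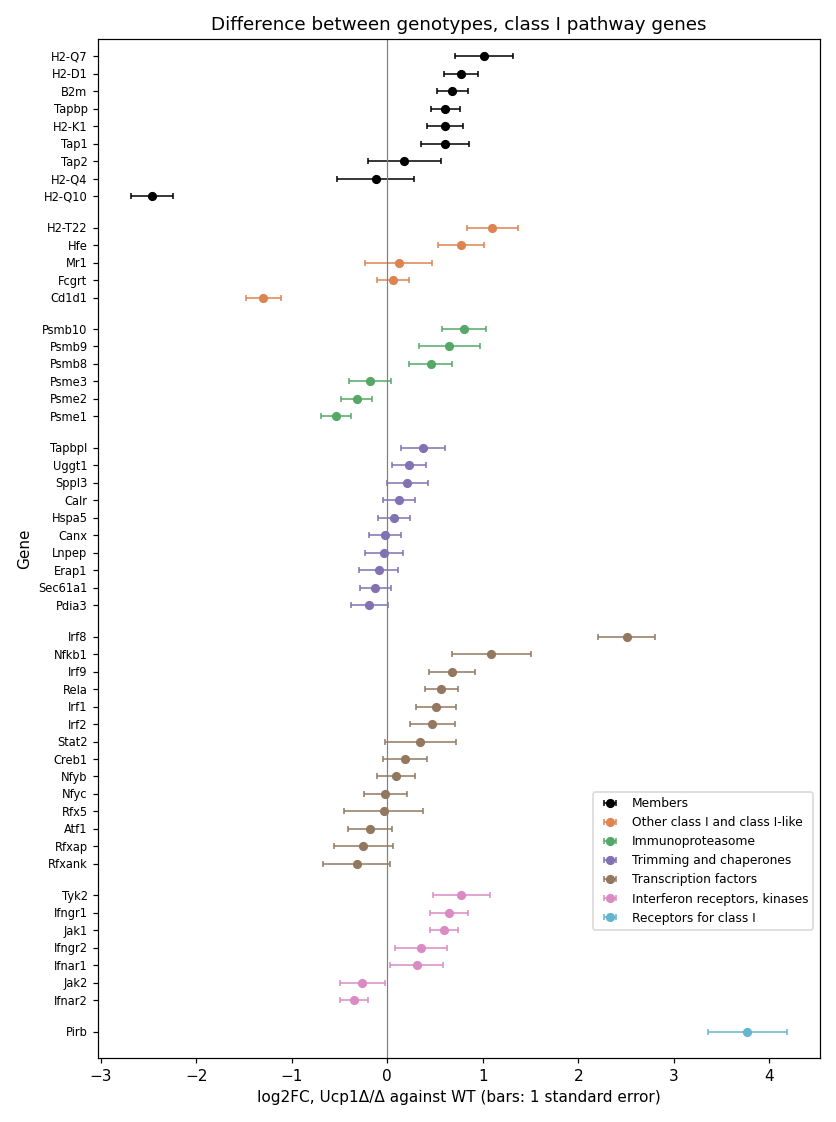
log2FC (Ucp1Δ/Δ against WT, n = 4 each) of the genes described and of the listed class I-like, processing, regulator and receptor genes that passed the filter, by role, apart from 1 transcription factor not reported here; points are estimates and bars 1 SE. H2-Q10 at -2.47 and Cd1d1 at -1.30 are the lowest points, and Pirb at 3.77 and Irf8 at 2.51 the highest.

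Among 51 genes of antigen processing and class I regulation, 39 passed the filter, 6 rose and 1 fell, beside the 13.3% and 7.63% of all genes. The immunoproteasome trims proteins to peptides that suit class I. Its catalytic subunit Psmb10 rose from 23 ± 6.35 to 40.4 ± 8.87 CPM (SD, n = 4 each; log2FC 0.80, SE 0.23, edgeR adjusted p = 0.0225). The other catalytic subunits had log2FC of 0.45 (Psmb8, SE 0.23, edgeR adjusted p = 0.181) and 0.65 (Psmb9, SE 0.32, edgeR adjusted p = 0.174). Psme1, a subunit of the PA28 activator, fell from 115 ± 6.26 to 79.1 ± 9.37 CPM (SD, n = 4 each; log2FC -0.54, SE 0.16, edgeR adjusted p = 0.0241), and its partner Psme2 was at -0.32 (SE 0.16). The call of Psmb10 was lost without WT replicate 1, Ucp1Δ/Δ replicate 1 or Ucp1Δ/Δ replicate 3, with adjusted p up to 0.07. That of Psme1 was lost without WT replicate 1 or Ucp1Δ/Δ replicates 1, 2 or 3, and under scaling by total counts (adjusted p = 0.0934).

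None of the 10 genes of peptide trimming, editing and the endoplasmic reticulum chaperones was called by edgeR, and 0 had an unadjusted p under 0.05; 0 were called by DESeq2, limma voom or limma trend. Their log2FC lay between -0.19 (Pdia3, the ERp57 of the loading complex) and 0.38 (Tapbpl, the tapasin-related peptide editor), with Calr at 0.12 (SE 0.17) and Canx, the lectin chaperone of new heavy chains, at -0.02 (SE 0.17).

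Of 15 transcription factors tested, 2 rose, a share near the 13.3% of all genes called higher. Irf8, an interferon regulatory factor of myeloid cells, rose from 10, 7, 5 and 10 counts to 55, 74, 45 and 48 counts (log2FC 2.51, SE 0.30, edgeR adjusted p = 2.6e-05). Its WT counts were low, so it passed the filter through the Ucp1Δ/Δ mice. Rela, the p65 subunit of NF-kB, rose with a log2FC of 0.57 (SE 0.17, edgeR adjusted p = 0.0283), lost without WT replicates 1 or 3 or Ucp1Δ/Δ replicates 1, 2 or 3 (adjusted p up to 0.083). Irf1 and Irf9, which take part in the interferon response, had log2FC of 0.51 (SE 0.21) and 0.68 (SE 0.24), and were not called. Nlrc5, the transactivator of class I genes, did not pass the filter. Of 7 interferon receptors and kinases, Jak1 (log2FC 0.59, SE 0.15, edgeR adjusted p = 0.0103) and Ifngr1, the ligand-binding chain of the interferon-γ receptor (log2FC 0.65, SE 0.20, edgeR adjusted p = 0.0298), rose. The call of Ifngr1 was lost without WT replicate 3 (log2FC 0.48, adjusted p = 0.105), Ucp1Δ/Δ replicate 2 (0.0684) or Ucp1Δ/Δ replicate 4 (0.0942).

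Of 11 receptors for class I, only Pirb passed the filter, an inhibitory receptor of myeloid and B cells. It rose from 1, 4, 3 and 1 counts in WT to 27, 60, 30 and 35 counts in Ucp1Δ/Δ mice (log2FC 3.77, SE 0.41, edgeR adjusted p = 1.13e-05). With so few WT counts, Pirb passed the filter through the Ucp1Δ/Δ mice, so passing the filter and rising are not independent.

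Markers of some cell types also differed between the genotypes. All 9 macrophage markers that passed the filter rose, beside 13.3% of all genes. Several, such as Cd68, Tyrobp and Adgre1 with at most 12 counts in a WT mouse, passed the filter through their Ucp1Δ/Δ counts. For these a rise was partly set by the filter. The 10 listed summed to between 102 and 158 CPM in WT and between 983 and 1619 CPM in Ucp1Δ/Δ mice. Of 6 stromal markers 5 rose, beside the same 13.3% of all genes. Pdgfra (14, 10, 14 and 0 counts in WT) and Lum (5, 21, 9 and 10) passed the filter through their Ucp1Δ/Δ counts. Their rise was thus also partly set by the filter, and the CPM of Pdgfra overlapped between genotypes. The 6 stromal markers summed to between 283 and 362 CPM in WT and between 658 and 1105 CPM in Ucp1Δ/Δ mice. Of 8 adipocyte markers Cidea, Adipoq and Plin1 fell, and Lep, with at most 13 counts in a WT mouse, rose. Lep too passed the filter through its Ucp1Δ/Δ counts. Ucp1, Fabp4, Cox7a1 and Cox8b were not called. The 8 summed to between 13965 and 24631 CPM in WT and between 10960 and 16389 CPM in Ucp1Δ/Δ mice. None of 6 endothelial markers was called by edgeR, 2 had an unadjusted p under 0.05, and DESeq2 and limma trend called 0, limma voom 1 and edgeR with scaling by total counts 2; their sum was between 152 and 180 CPM in WT and between 194 and 213 CPM in Ucp1Δ/Δ mice. The part of these cell types in the class I values was not tested.

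Over 8 T cell markers there were 4, 11, 7 and 13 counts in WT mice and 36, 36, 24 and 15 in Ucp1Δ/Δ mice. Over 5 NK cell markers there were 6, 17, 4 and 3 counts in WT and 30, 32, 12 and 18 in Ucp1Δ/Δ mice. In CPM the T cell sums were 2.04 to 6.59 in WT and 6.44 to 12.7 in Ucp1Δ/Δ mice. The NK cell sums were 1.34 to 7.62 and 5.01 to 10.6 CPM. Both pairs of ranges overlapped, and no T or NK cell marker passed the filter, so no difference was tested. B cell markers had at most 3 counts over 4 genes, with Cd79a at 0 in every mouse. The 8 hepatocyte markers, listed because H2-Q10 is known from liver, had between 1 and 4 counts per mouse in all, with Fgb, Fga and Ahsg at 0 in every mouse, beside 319 to 579 counts of H2-Q10 in WT. Skeletal muscle markers differed widely between mice, from 15 to 1177 CPM in WT and from 46.8 to 1552 CPM in Ucp1Δ/Δ mice, and 0 of 6 were called by edgeR, with 0 at an unadjusted p under 0.05 and 0 called by DESeq2, limma voom or limma trend.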

How the data were processed

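BAT RNA of 4 WT and 4 Ucp1Δ/Δ mice was sequenced from a single end with 75 cycles. The study's methods name the NEGEDIA Digital mRNA-seq service for the libraries. Per the study's methods, the authors used bbduk for trimming, STAR for alignment to mm10 and HTseq-counts for counting per gene; the submitters' processing notes name Trimmomatic, HISAT2 and DESeq2 instead. The deposited counts are whole numbers without normalization. The deposited log2 values equal the log2 of the count over 1 factor per mouse, plus 1, and served 1 alternative. Annotation release and strand use are not given in the sources used here.

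Counts were filtered with filterByExpr (minimum count 10), scaled by TMM and tested with edgeR 4.0.16's quasi-likelihood test on genotype (R 4.3.3), with Benjamini-Hochberg adjustment over 8930 genes and a threshold of 0.05. The SE was derived from the log2FC and its F statistic. log2 CPM used a prior count of 2. The genes described and all lists were chosen with earlier results of these data known. Named genes are the genes described, Pnpla2, per role up to 3 called genes in each direction with the smallest adjusted p, and the 3 genes with the largest r to H2-Q10, B2m and H2-K1 among genes of at least 10 mean CPM; uncalled genes named by role and H2-M2 were chosen after their values were seen. Some genes that this rule or the lists name are not reported here. Symbols came from GENCODE (30934 of 31053 identifiers matched), exons from GENCODE on GRCm38 and promoters (250 bases before to 50 after the start) from RefSeq GRCm38.p6, which held 9 of the 10 genes described. DESeq2 1.42.0 and limma 3.58.1 gave alternatives. The tests were checked on simulated counts. Within genotypes, every pair of libraries differed beyond counting noise (chi-square per degree of freedom of at least 4.69), so none was a duplicate; the labels name separate mice. Same-numbered mice of the 2 genotypes did not deviate together (r between -0.196 and 0.304), so the numbers were not taken as pairs.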

Additional observations from a re-analysis of the deposited data

Results flagged for a closer look

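Within a genotype, 1 mouse stood apart from the other 3 in 5 of 42 groups of 4 mice examined on log2 CPM (the genes described, Pnpla2 and the called class I-like, processing and receptor genes), by Dixon's ratio of gap to range at the 95% limit; chance flags about 1 in 20 groups, or 2.1 here. H2-K1 was at 8.54 in Ucp1Δ/Δ replicate 2 and between 8.08 and 8.14 in the others (gap 0.872 of the range). B2m was at 9.63 in WT replicate 3 and between 9.80 and 9.83 in the others (0.879). Psme1 was at 6.55 in Ucp1Δ/Δ replicate 4 and between 6.22 and 6.24 in the others (0.94), and Rela at 5.22 in the same mouse and between 5.61 and 5.67 in the others (0.872). Ifngr1 was at 5.86 in WT replicate 3 and between 6.60 and 6.66 in the others (0.925).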

How the results depend on the processing

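The log2FC of H2-Q10 stayed between -2.57 and -2.32, and those of H2-K1, H2-D1, H2-Q7, B2m and Tapbp stayed above 0, under every alternative scaling, filter and test and without any mouse; only summing of similar genes changed this, with H2-Q7 at -1.99 within the summed H2-Q genes and H2-Q10 at 0.21 within all summed heavy chains, sums that hold the counts of genes of opposite direction. H2-Q4 lay between -0.41 and 0.29 and Tap2 between -0.05 and 0.52. Of the genes described, the number called higher was 2 at an adjusted p under 0.01 and between 3 and 5 without 1 mouse: H2-K1 was lost in 6 of 8 such fits and H2-Q7 in 4. DESeq2 did not call H2-Q7, and total counts only called Tap1 too. Of class I-like genes, 4 were higher with at least 1 count in any mouse, 1 at an adjusted p under 0.01, 1 with the replicate number as a block and between 1 and 2 without 1 mouse. Of processing genes, total counts only gave 10 higher and 0 lower, an adjusted p under 0.01 gave 2 and 0, at least 10 counts in every mouse gave 0 lower, DESeq2 2 lower, and leaving out 1 mouse between 0 and 1 lower. Among all genes, 1191 were higher and 681 lower, or 63.6% higher; total counts only gave 1478 and 404, or 78.5% higher, and moved the median log2FC of all genes to 0.13. At least 10 counts in every mouse gave 746 and 449, at least 1 count in any mouse 1630 and 883, an adjusted p under 0.01 gave 779 and 290, and leaving out 1 mouse between 945 and 1304 higher and between 400 and 851 lower, the lowest of both without Ucp1Δ/Δ replicate 2. The replicate number as a block gave 1138 and 581, changed no call among the genes described and lost Hfe (adjusted p = 0.0657) and Rela (0.0546); Rela was also lost with at least 1 count in any mouse (0.0694) and Psme1 with at least 10 counts in every mouse (0.051); same-numbered mice had r of -0.0873, -0.196, 0.304 and 0.241, and 1 of 4 numbers was its own best match. Genes of few counts (H2-Q4, H2-Q7, H2-T23, Tap1, Tap2) are limited by depth.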

Other observations

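H2-M2, a class I-like heavy chain of the H2-M cluster (chr17:37480851-37483552 of GRCm38, minus strand), had 0 counts in all 4 WT mice and 11, 9, 6 and 4 counts in Ucp1Δ/Δ replicates 1 to 4. Against a floor of 3 counts over all WT mice this is at least 8.51-fold higher. It did not pass the filter on low counts and was noticed after the values were seen. None of its 75-base windows occurs in another gene (0%), and its promoter window held all 4 kinds of match searched.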
